A study of Caenorhabditis elegans with 12 samples.

Results

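The endoplasmic reticulum (ER) stress and folding genes were taken as the rows of the expression table named *xbp-1*, *hsp-3*, *hsp-4*, *ire-1*, *pek-1*, *atf-6*, *crt-1*, *cnx-1*, *pdi-2* or *ero-1*, which gave 10 genes among the 46926 features of the table. RNA was sequenced from whole worms of N2, the standard wild-type strain of *C. elegans*, fed either the Δ*lpp* mutant of *E. coli* (6 libraries) or its parent strain BW25113, which carries *lpp* (6 libraries). The *lpp* gene encodes the lipoprotein that ties the bacterial outer membrane to peptidoglycan. Worms of both groups shared the genotype and were kept on high-fat NGM medium, and the diet strain was the only difference that the labels name. The worms' age when RNA was collected is not given in the sources used here. No source says that the libraries came from separate cultures, so the p-values measure the spread between these libraries, which may be technical. All 10 genes passed the filter on low counts, by which 15266 genes were tested.

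The ER folds secreted and membrane proteins, and in the worm these include the collagens of the cuticle, the yolk proteins made by the intestine and much of the secreted digestive and immune repertoire. Chaperones of the BiP type hold unfolded chains, calreticulin and calnexin bind chains that carry sugars, and protein disulfide isomerases form disulfide bonds with oxidising power from the oxidase ERO-1. When unfolded protein builds up, 3 sensors in the ER membrane, IRE-1, PEK-1 and ATF-6, start the unfolded protein response (UPR). IRE-1 cuts the mRNA of *xbp-1*, which after splicing encodes a transcription factor of folding genes, and PEK-1 slows translation. The table counts fragments per gene, so spliced and unspliced *xbp-1* mRNA are not separated here, and neither sensor activity nor protein was measured.

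On the Δ*lpp* diet the RNA of *pdi-2*, *hsp-3* and *hsp-4* was lower and that of the sensor genes and *cnx-1* higher under every scaling of the libraries tried, with *ire-1* short of the threshold under RLE factors (the size factors of DESeq2), while the direction of *crt-1*, *xbp-1* and *ero-1* turned with the scaling. With TMM scaling, the main choice here, the largest difference among the 10 was in *pdi-2*, 2.46-fold lower, followed by the BiP genes *hsp-4*, 2-fold lower, and *hsp-3*, 1.98-fold lower. The sensor genes *ire-1*, *pek-1* and *atf-6* and the calnexin gene *cnx-1* were 1.17-fold to 1.25-fold higher with TMM, and on log2(TPM + 1) these 4 differed by more than *pdi-2* did, at 0.78 to 0.89 against -0.70. At an adjusted p under 0.05 (edgeR, quasi-likelihood F test; Benjamini-Hochberg over all tested genes), 5 of the 10 were lower on the Δ*lpp* diet and 4 were higher. Over all tested genes 32.3% were lower and 32.9% higher by this rule, or 65.2% in all. The balance turned by library size alone (the total count with no further factor), to 3 lower and 6 higher against 19.8% and 59.3% of all tested genes, and on log2(TPM + 1), to 3 lower and 7 higher against 17.2% and 65.9%. With TMM the count of genes that were higher was 1 without Δ*lpp* replicate 2, BW25113 replicate 2 or BW25113 replicate 6. With the study's further limit of 1 on the log2 fold change, only *pdi-2* was called, against 15.6% of all tested genes called lower and 12.1% called higher, or 27.7% in all. *hsp-3* and *hsp-4* lay just short of that limit. The number called was 0 by library size alone, with or without ribosomal RNA, and on both TPM scales. It was 3 with RLE factors, DESeq2 or no filter. It was also 3 without Δ*lpp* replicate 3 or 5, and 2 without BW25113 replicate 1, 3, 5 or 6. Over all tested genes 1747 were called lower and 3720 higher by library size alone, and 1244 and 2642 on log2(TPM + 1). These counts were 2457 and 1766 with RLE factors, and 2379 and 1849 with TMM. In TMM-scaled values every library of the Δ*lpp* group lay below every BW25113 library for 5 of the 10 genes and above for 1, against 23.7% and 17.8% of all tested genes, or 41.5% in all. In TPM this was so for 2 genes below and 5 above, with *xbp-1* separated in the other direction. The share of all tested genes apart in TPM was not computed, so these TPM counts have no background beside them.

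The scaling of the libraries matters for these values. Total counts were 20254430 to 24442423 per library and overlapped between the diets. The TMM factors, which rescale libraries on the assumption that most genes do not change, lay between 1.08 and 1.27 for Δ*lpp* and between 0.794 and 0.988 for BW25113 libraries. Levels below are CPM, the counts of a gene relative to the scaled library total, scaled with these factors, unless named as TPM. Over all tested genes the log2 fold change had a median of 0.05 with TMM and of 0.50 by library size alone. Ribosomal RNA genes made up 0.408% to 0.567% of each Δ*lpp* library and 1.24% to 2.69% of each BW25113 library, and leaving them out of the library size moved the median to 0.48. In RNA from whole worms, fewer cells of a type and less RNA per cell cannot be told apart.

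**Figure D1:**
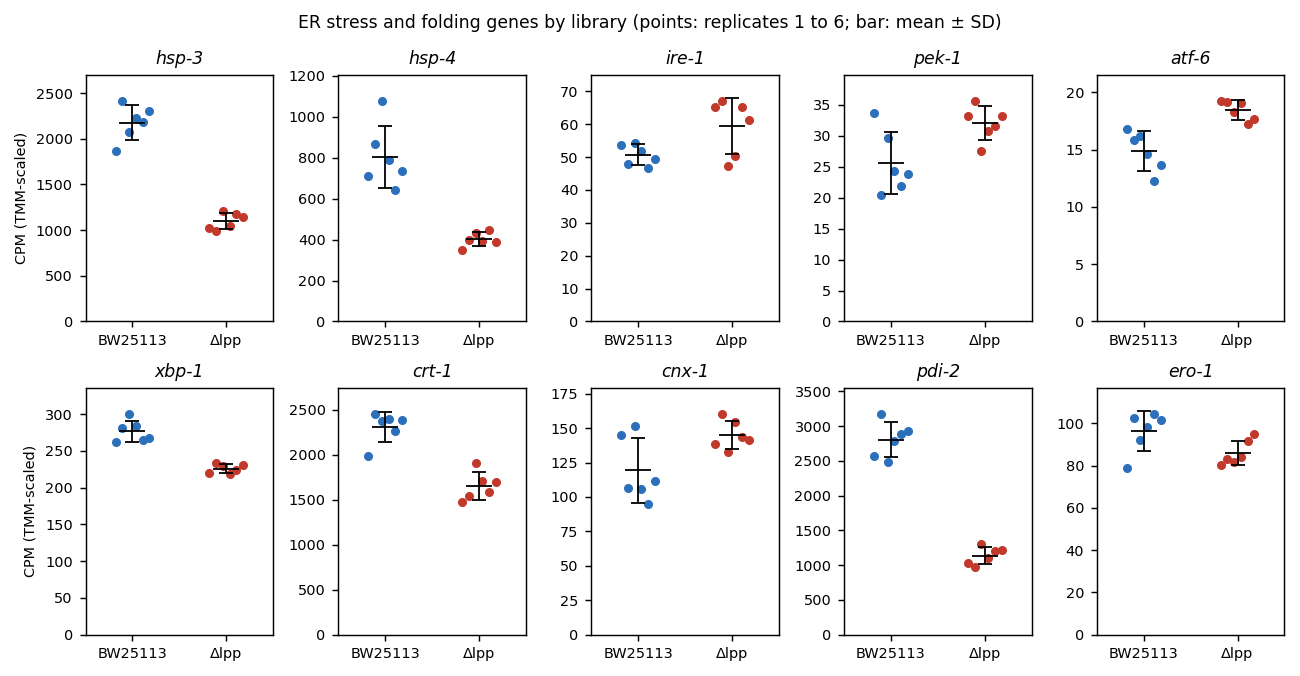
TMM-scaled CPM of the 10 genes in each library, with BW25113 libraries in blue and Δ*lpp* libraries in red, each vertical axis starting at 0. Points are replicates 1 to 6 from left to right and the bar gives the mean ± SD (n = 6). The groups are apart for *hsp-3*, *hsp-4*, *xbp-1*, *crt-1* and *pdi-2*, which are lower in the Δ*lpp* group, and for *atf-6*, which is higher, and they overlap for the others.

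Both BiP genes were lower on the Δ*lpp* diet. *hsp-3* (WBGene00002007; WBcel235 assembly, chromosome X, positions 6089028 to 6092124, minus strand) encodes the BiP homologue that worms make without stress. Its level was 987 to 1214 CPM in the Δ*lpp* libraries, with a median of 1098, and 1871 to 2414 CPM in the BW25113 libraries, with a median of 2202. The highest Δ*lpp* library, replicate 3, was still well below the lowest BW25113 library, replicate 1. On the log2 scale *hsp-3* differed by -0.99 (SE 0.0919; edgeR adjusted p = 2.79e-08). *hsp-4* (WBGene00002008), the BiP homologue commonly used as a reporter of the UPR, occupies positions 7350112 to 7352645 of chromosome II, minus strand. Its level was 351 to 449 CPM in the Δ*lpp* libraries, with a median of 397, and 643 to 1077.5 CPM in the BW25113 libraries, with a median of 761. BW25113 replicate 3 had the highest value, and the BW25113 libraries varied more, with a coefficient of variation of 19.1% against 8.64%. On the log2 scale it differed by -0.996 (SE 0.114; edgeR adjusted p = 4.62e-07), and by -0.90 without BW25113 replicate 3.

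The direction of both BiP genes was the same in each of 22 alternative settings (other scalings, tools and filters, the replicate number as a block, and each library left out), including the scalings that shrink the difference. By library size alone the log2 fold changes were -0.54 for *hsp-3* and -0.55 for *hsp-4*, and both were -0.37 on log2(TPM + 1). Because the 2 proteins are close relatives, a read that fits both genes may have been assigned to either, although every count of both genes was whole. No change in the proportion of the pair was detected. The count ratio of *hsp-4* to *hsp-3* was 0.340 to 0.404 in the Δ*lpp* libraries and 0.295 to 0.521 in the BW25113 libraries. The mean log2 ratio differed by 0.005 (95% interval -0.27 to 0.24, two-sided exact permutation test over 924 arrangements, p = 0.963), and the estimate lay on both sides of 0 when single libraries were left out, between -0.057 and 0.107. A ratio within a library does not depend on how libraries are scaled. In TPM, which also corrects for gene length, *hsp-4* made up 28.2% to 32.1% of the BiP total on the Δ*lpp* diet and 25.4% to 37.5% on BW25113.

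The genes for disulfide formation moved apart. *pdi-2* (WBGene00003963; chromosome X, positions 4524155 to 4526536, plus strand) encodes a protein disulfide isomerase that is also a subunit of prolyl 4-hydroxylase, the enzyme that hydroxylates collagen chains in the ER. It had 968 to 1305 CPM in the Δ*lpp* libraries, with a median of 1154, and 2478 to 3168 CPM in the BW25113 libraries, with a median of 2835. No library came near the other group. The log2 fold change was -1.30 (SE 0.0989; edgeR adjusted p = 1.72e-09), -0.85 by library size alone and -0.70 on log2(TPM + 1), so that the direction held while the size of the change fell below the limit for a call. *ero-1* (WBGene00001334; chromosome I, positions 14664449 to 14674841, plus strand) encodes the oxidase that recharges these isomerases. It had 80.4 to 94.7 CPM in the Δ*lpp* libraries and 78.8 to 104 CPM in the BW25113 libraries, and the groups overlapped, with BW25113 replicate 1 the lowest of all and BW25113 replicate 3, at 92.3 CPM, also within the Δ*lpp* range. Its log2 fold change of -0.16 (SE 0.0833) did not pass the test with TMM (edgeR adjusted p = 0.0916), and passed without BW25113 replicate 1 at -0.19 (edgeR adjusted p = 0.0227). It was 0.29 by library size alone and 0.45 on log2(TPM + 1), in the other direction.

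Against *ero-1* in the same library, *pdi-2* was lower on the Δ*lpp* diet. There were 11.7 to 16.01 counts of *pdi-2* per count of *ero-1* in the Δ*lpp* libraries and 26.8 to 32.6 in the BW25113 libraries, with a wide gap between the groups. The difference was -1.14 on the log2 scale (95% interval -1.30 to -0.97, exact two-sided permutation test, p = 0.00216, which is the smallest these groups allow, and 0.0036 after Benjamini-Hochberg adjustment over the 5 ratios tested). The other subunit of prolyl 4-hydroxylase, encoded by *dpy-18*, was lower still. *dpy-18* had 76.1 to 102 CPM in the Δ*lpp* group and 211 to 340 CPM in the BW25113 group, a log2 fold change of -1.77 (SE 0.114; edgeR adjusted p = 1.61e-10). The ratio of *pdi-2* to *dpy-18* counts was therefore higher in the Δ*lpp* libraries, at 12.5 to 14.4 against 8.47 to 11.8. That difference was 0.46 on the log2 scale (95% interval 0.31 to 0.60, two-sided exact permutation test, p = 0.00216, adjusted 0.0036), and it was 0.52 without BW25113 replicate 3, whose ratio was the highest of its group.

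With TMM the lectin chaperones went in opposite directions. *crt-1* (WBGene00000802; chromosome V, positions 6098992 to 6100542, minus strand) encodes calreticulin, the soluble lectin chaperone and a store of ER calcium. It had 1475 to 1911 CPM in the Δ*lpp* libraries, with a median of 1641, and 1988 to 2448 CPM in the BW25113 libraries, with a median of 2382. The groups did not overlap, but Δ*lpp* replicate 3 and BW25113 replicate 1 lay close together. The log2 fold change was -0.48 (SE 0.0912; edgeR adjusted p = 0.000152), -0.03 by library size alone (adjusted p = 0.619) and 0.12 on log2(TPM + 1), where the direction turned. *cnx-1* (WBGene00000567; chromosome III, positions 9814364 to 9817137, minus strand) encodes calnexin, the membrane-bound partner. It had 133 to 160 CPM in the Δ*lpp* libraries, with a median of 142, and 95.1 to 151 CPM in the BW25113 libraries, with a median of 109. BW25113 replicates 1 and 3, at 145 and 151 CPM, lay within the Δ*lpp* range, and the other 4 lay below it. The log2 fold change was 0.28 (SE 0.110; edgeR adjusted p = 0.0304). It stayed positive in all 22 alternatives, from 0.25 to 0.90, but missed the threshold without Δ*lpp* replicate 2 (adjusted p = 0.0651), Δ*lpp* replicate 4 (0.0588), BW25113 replicate 2 (0.0799) or BW25113 replicate 6 (0.0699).

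Within a library, calreticulin RNA fell relative to calnexin RNA. The count ratio of *crt-1* to *cnx-1* was 9.63 to 14.4 in the Δ*lpp* libraries, with a median of 11.1, and 13.7 to 23.8 in the BW25113 libraries, with a median of 22.03. The overlap came from Δ*lpp* replicate 3, at 14.4, and BW25113 replicate 1, at 13.7, while BW25113 replicate 3 stood at 15.7. The difference was -0.79 on the log2 scale, or 1.73-fold (95% interval -1.12 to -0.44, two-sided exact permutation test, p = 0.00433, adjusted 0.00541). Both genes overlap a gene on the other strand, and the sources do not say whether the counting used strand. The partner of *crt-1*, *smut-1*, had 593 to 1443 counts per library against a mean of 43260 for *crt-1*. The partner of *cnx-1*, *ZK632.14*, had 154 to 466 counts against a mean of 3032. Both partners had more counts on the Δ*lpp* diet, with means of 1331 against 692 for *smut-1* and 357 against 242 for *ZK632.14*. Their part in the counts of *crt-1* and *cnx-1* was not tested.

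The sensor genes were expressed at far lower levels than the chaperones, and their RNA was higher on the Δ*lpp* diet by an amount that rested on the scaling. By library size alone the log2 fold changes of *atf-6*, *pek-1* and *ire-1* were 0.75, 0.76 and 0.68, and on log2(TPM + 1) they were 0.78, 0.80 and 0.79, against the smaller values with TMM given below. *atf-6* (WBGene00000222; chromosome X, positions 12480948 to 12484904, plus strand) encodes the sensor that is itself a transcription factor. It had 17.2 to 19.3 CPM in the Δ*lpp* libraries and 12.3 to 16.8 CPM in the BW25113 libraries, and in these TMM-scaled values no other member had all Δ*lpp* libraries above. Its log2 fold change was 0.31 (SE 0.1; edgeR adjusted p = 0.0123), and it passed the test with the same direction in all 22 alternatives. *pek-1* (WBGene00003970; chromosome X, positions 11410176 to 11414887, minus strand) encodes the kinase of the translation arm. It had 27.5 to 35.6 CPM in the Δ*lpp* libraries, with a median of 32.4, and 20.5 to 33.7 CPM in the BW25113 libraries, with a median of 24.1. BW25113 replicates 1 and 3 were again the high ones of their group. Its log2 fold change was 0.32 (SE 0.118; edgeR adjusted p = 0.0249), and it missed the threshold without Δ*lpp* replicate 2 (adjusted p = 0.0553), BW25113 replicate 2 (0.074) or BW25113 replicate 6 (0.0572).

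Of the 9 genes that passed, *ire-1* had the highest adjusted p. *ire-1* (WBGene00002147; chromosome II, positions 8112243 to 8124910, minus strand) encodes the kinase and endoribonuclease that cuts *xbp-1* mRNA. It also overlaps a gene on the other strand, *unc-105*, which had 111 to 219 counts per library against a mean of 1254 for *ire-1*. *ire-1* had 47.2 to 67.0 CPM in the Δ*lpp* libraries, with a median of 63.2, and 46.6 to 54.3 CPM in the BW25113 libraries, with a median of 50.7. Δ*lpp* replicates 3 and 4, at 47.2 and 50.4 CPM, lay within the BW25113 range. Its log2 fold change was 0.23 (SE 0.0965; edgeR adjusted p = 0.0457). The direction held throughout, but 11 of the 22 alternatives missed the threshold. Among these were RLE factors, DESeq2, no filter and leaving out any of Δ*lpp* replicates 1, 2, 5 and 6 or BW25113 replicates 2, 5 and 6, with adjusted p from edgeR of up to 0.104 without Δ*lpp* replicate 2.

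*xbp-1* RNA was lower by a small margin with TMM scaling and higher by library size alone and in TPM. *xbp-1* (WBGene00006959) occupies positions 4193809 to 4195358 of chromosome III, plus strand, and its spliced form encodes the transcription factor of the IRE-1 arm. Its level was 219 to 234 CPM in the Δ*lpp* libraries, with a median of 227, and 263 to 299.7 CPM in the BW25113 libraries, with a median of 274. The groups did not overlap, and the Δ*lpp* libraries were the tightest of any member, with a coefficient of variation of 2.68%. Its log2 fold change was -0.29 (SE 0.0707; edgeR adjusted p = 0.00149). With RLE and upper quartile factors it was -0.325 and -0.198 (edgeR adjusted p = 0.000857 and 0.00868). By library size alone it was 0.16 (edgeR adjusted p = 0.0275), and it was 0.31 on log2(TPM + 1). With ribosomal RNA left out of the library size it was 0.14 and did not pass (edgeR adjusted p = 0.0511). Its counts were not whole numbers in any of the 12 libraries, so the authors' counting gave it fractions of some reads. Relative to *ire-1* in the same library, *xbp-1* was lower on the Δ*lpp* diet whatever the scaling. There were 3.36 to 4.86 counts of *xbp-1* per count of *ire-1* in the Δ*lpp* libraries and 4.88 to 5.86 in the BW25113 libraries, where Δ*lpp* replicate 3 and BW25113 replicate 1 nearly met. The difference was -0.51 on the log2 scale (95% interval -0.71 to -0.29, two-sided exact permutation test, p = 0.00216, adjusted 0.0036).

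**Figure D2:**
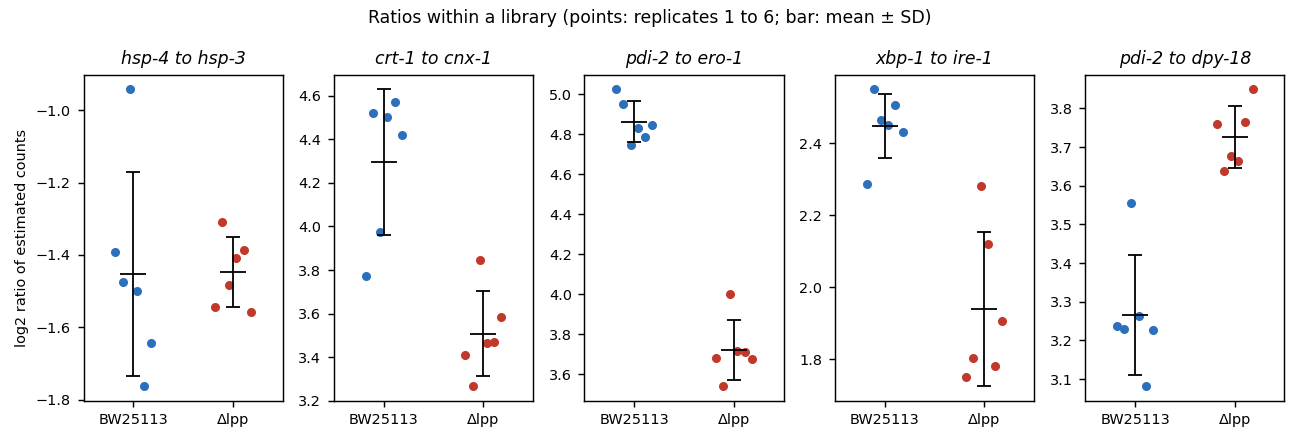
Log2 ratio of the estimated counts of 2 genes within each library for the 5 ratios tested, with BW25113 in blue and Δ*lpp* in red. Points are replicates 1 to 6 and the bar gives the mean ± SD (n = 6); the vertical axes differ and do not start at 0. The ratio of *hsp-4* to *hsp-3* overlaps fully between the diets, while *pdi-2* to *ero-1*, *xbp-1* to *ire-1* and *pdi-2* to *dpy-18* are apart.

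Set against the median gene, each member lay on the same side under each scaling. Relative to the median tested gene, *pdi-2* was at -1.35 with TMM, -1.36 by library size alone and -1.20 on log2(TPM + 1). *hsp-3* and *hsp-4* were at -1.04 and -1.05 with TMM and at -0.88 and -0.88 on log2(TPM + 1). *crt-1*, *xbp-1* and *ero-1* were below the median gene on each of these scales, at -0.53, -0.34 and -0.21 with TMM and -0.39, -0.20 and -0.06 on log2(TPM + 1). *ire-1*, *pek-1*, *atf-6* and *cnx-1* were above it on each, at 0.18 to 0.27 with TMM and 0.27 to 0.38 on log2(TPM + 1). A value relative to the median takes the median gene as unchanged, and the values by library size alone had to lie near those with TMM because both rest on the same counts.

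**Figure D3:**
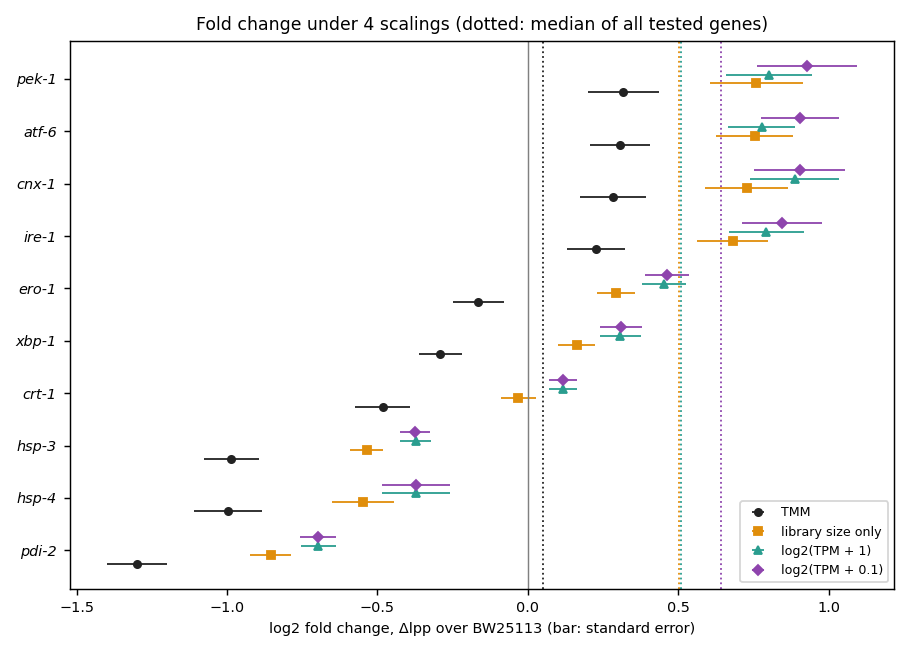
Log2 fold change of each gene (Δ*lpp* over BW25113) with its standard error under 4 scalings, on the horizontal axis, with dotted lines at the median of all tested genes for each scaling. *hsp-3*, *hsp-4* and *pdi-2* are below 0 under all 4 and *ire-1*, *cnx-1*, *atf-6* and *pek-1* above 0, while *crt-1*, *xbp-1* and *ero-1* lie on both sides of it.

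The order of the genes by level, in the TPM values that the authors computed per gene length, was nearly the same on both diets. *crt-1* was highest, with a median of 1256 TPM in the Δ*lpp* group and 1145 TPM in the BW25113 group. *pdi-2* followed at 615 and 1004 TPM, *hsp-3* at 489 and 619, *hsp-4* at 206 and 265, and *xbp-1* at 167 and 134 TPM. These 5 levels did not overlap within the Δ*lpp* group. In the BW25113 group *crt-1*, at 1043 to 1190.0 TPM, and *pdi-2*, at 904 to 1112 TPM, overlapped and the others did not. Below them, *cnx-1* had a median of 73.4 TPM and *ero-1* 51.3 TPM in the Δ*lpp* group, while in the BW25113 group *cnx-1*, at 29.7 to 55.3 TPM, and *ero-1*, at 33.4 to 39.8 TPM, were not separated. *ire-1* followed at 19.0 and 9.82 TPM. *pek-1* and *atf-6* were lowest and not separated from each other in either group, at 8.23 and 7.57 TPM in the Δ*lpp* group and 3.94 and 3.98 TPM in the BW25113 group. The 10 genes together held 0.539% to 0.588% of the counts of each Δ*lpp* library and 0.676% to 0.815% of each BW25113 library. *crt-1*, *pdi-2*, *hsp-3* and *hsp-4* made up 87.4% to 90.2% of the summed TPM of the 10 genes on the Δ*lpp* diet and 92.2% to 93.6% on BW25113.

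**Figure D4:**
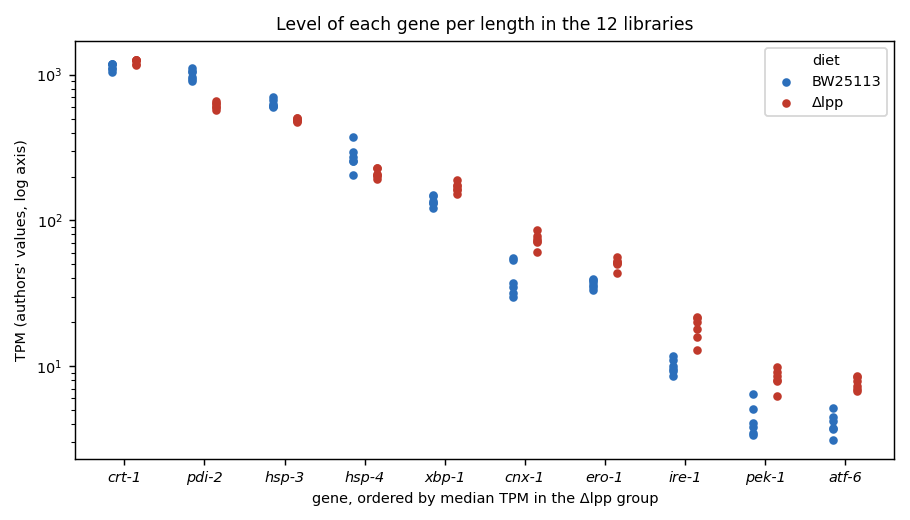
TPM of the 10 genes in every library on a log axis, ordered by the median in the Δ*lpp* group, with BW25113 in blue and Δ*lpp* in red. Levels run from *crt-1* at the top to *pek-1* and *atf-6* at the bottom, and the red points lie below the blue ones for *pdi-2* and *hsp-3* and above them for *xbp-1*, *cnx-1*, *ero-1*, *ire-1* and *atf-6*.

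Among libraries of the same diet, the members varied in sets. After the group mean was subtracted from log2 CPM, *hsp-3* and *pdi-2* varied together over the 12 libraries, with a Pearson correlation of 0.914 and a Spearman correlation of 0.916. *pek-1* and *cnx-1* did so as well, with correlations of 0.851 and 0.853. *hsp-3* and *pek-1* varied against each other, with correlations of -0.822 and -0.783. Without the 2 libraries farthest from the median in the first gene, the Pearson correlations of these 3 pairs were 0.938, 0.837 and -0.657. *hsp-4* followed *xbp-1* with a Pearson correlation of 0.802, which fell to 0.553 without such a pair of libraries and was 0.927 in the BW25113 group and 0.307 in the Δ*lpp* group. These were picked from 45 pairs as the largest of their kind, the points share each library's scaling and composition, and the values are descriptions without a test.

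Among the other 8090 tested genes with a symbol and a mean of at least 10 CPM, the nearest to *hsp-4* by the same measure over 12 libraries were *dnj-12*, a gene of the DnaJ co-chaperone family (0.931), *ttr-6*, of the transthyretin-related family (0.914), and *tmed-1*, of the p24 family of cargo receptors between the ER and the Golgi (0.911). For *xbp-1* they were *F30A10.3* (0.886), *B0001.3* (0.883) and again *dnj-12* (0.878). Without BW25113 replicate 1 other genes were nearest, since those of *hsp-4* then ranked 4, 2 and 5 (0.927, 0.943 and 0.924) and those of *xbp-1* 7, 9 and 6 (0.863, 0.86 and 0.865). With TMM the diets did not move the genes nearest to *hsp-4* as they moved *hsp-4*. *dnj-12* and *tmed-1* had log2 fold changes of -0.09 and 0.10, short of the threshold, and *ttr-6* had 0.52 (edgeR adjusted p = 3.39e-05). Of those nearest to *xbp-1*, which was lower with TMM, *F30A10.3* and *B0001.3* were higher, at 0.41 and 0.35 (edgeR adjusted p = 0.000656 and 0.0011).

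Beyond the 10 genes, 51 other genes of the ER were taken as a list by role, and all were tested. With TMM 35 of them were lower and 1 was higher on the Δ*lpp* diet at an adjusted p under 0.05, while 15 did not pass, against 32.3% lower and 32.9% higher over all tested genes. The list had a median log2 fold change of -0.52, against 0.05 for all tested genes, but it was -0.07 by library size alone, with 16 lower and 15 higher against 19.8% and 59.3% of all tested genes, and 0.12 on log2(TPM + 1), with 14 lower and 20 higher against 17.2% and 65.9%. The list's median minus that of all tested genes was -0.57 with TMM and -0.39 on log2(TPM + 1). With the further limit of 1 on the log2 fold change, 9 of the 51 were called lower with TMM and 0 higher. Over all tested genes 15.6% were called lower and 12.1% higher.

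Genes of protein entry into the ER were among the lowest. Of the 12 genes of the translocon and signal peptidase, 10 were lower with TMM, against 32.3% of all tested genes. By library size alone 7 were lower and 2 higher, against 19.8% and 59.3%. The channel gene *sec-61.A* and the 4 genes of the translocon-associated complex, *trap-1* to *trap-4*, were the 5 that also passed the fold change limit with TMM, and were singled out after their values were seen. Over all tested genes 15.6% were called lower with TMM. By library size alone and on log2(TPM + 1) the number past that limit was 0, with all 5 still lower. On these scales 1747 and 1244 of the 15266 tested genes were called lower. *trap-1* had 208 to 281 CPM in the Δ*lpp* group and 505 to 685 CPM in the BW25113 group, and its log2 fold change was -1.32 (edgeR adjusted p = 1.82e-09), -0.87 by library size alone and -0.73 on log2(TPM + 1). At the other end of this set, *spcs-3*, a signal peptidase subunit, was at -0.17 with TMM, where it did not pass (edgeR adjusted p = 0.207), and at 0.28 by library size alone. Of the 5 genes of the oligosaccharyl transferase, which adds sugar chains as proteins enter, 4 were lower with TMM and 0 passed by library size alone. Their values ran from *stt-3*, the catalytic subunit, at -0.55 to *dad-1* at -0.15 with TMM, and both turned on log2(TPM + 1), to 0.05 and 0.40.

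Of the 4 collagen hydroxylase genes, 3 were lower on each of the 3 scales. Over all tested genes 32.3% were lower with TMM, 19.8% by library size alone and 17.2% on log2(TPM + 1). *dpy-18* and *phy-2*, which encode the catalytic subunits that pair with PDI-2, had log2 fold changes of -1.77 and -1.63 with TMM, -1.33 and -1.20 by library size alone and -1.14 and -0.95 on log2(TPM + 1). *phy-3*, a further prolyl 4-hydroxylase gene, was also called with TMM, at -1.36 and a mean of only 3.16 CPM. It was not called by library size alone (-0.90) or on log2(TPM + 1) (-0.52), and was singled out after its values were seen. *let-268*, the lysyl hydroxylase gene, was at -0.71 with TMM and turned to 0.33 on log2(TPM + 1). All 4 other protein disulfide isomerase genes were lower with TMM, from *C14B9.2* at -0.57 to *pdi-6* at -0.86. *pdi-6* stayed lower by library size alone (-0.42, adjusted p = 1.24e-05 from edgeR) and on log2(TPM + 1) (-0.26), while *C14B9.2* was at 0.06 on the latter.

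Of the 6 other ER chaperone genes, 5 were lower with TMM, against 32.3% of all tested genes. By library size alone 1 was lower and 1 higher, against 19.8% and 59.3%. *enpl-1*, the homologue of the ER chaperone GRP94, was at -0.60 (edgeR adjusted p = 1.07e-05), but by library size alone it was at -0.15 and on log2(TPM + 1) at 0.01, and it passed neither test. *dnj-27*, an ER co-chaperone with thioredoxin domains, was at -0.20 with TMM, where it did not pass (edgeR adjusted p = 0.0502), and at 0.25 by library size alone. *uggt-2*, a relative of the enzyme that re-tags misfolded glycoproteins, was the 1 called gene of this set, at -2.59 and a mean of only 1.61 CPM, and was singled out after its values were seen. With TMM 15.6% of all tested genes were called lower. The direction of the genes of ER-associated degradation turned with the scaling. With TMM 5 of 12 were lower and 0 higher, against 32.3% and 32.9% of all tested genes. By library size alone 1 was lower and 9 were higher, against 19.8% and 59.3% of all tested genes. The lowest was *cdc-48.2*, at -0.87, a gene of the p97 ATPase whose reads could be shared with its near copy *cdc-48.1*, and the highest was the ubiquitin ligase gene *hrdl-1*, at 0.10 (edgeR adjusted p = 0.411).

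Of 6 other genes of the UPR, 1 was higher and 2 were lower with TMM, against 32.9% and 32.3% of all tested genes. Both by library size alone and on log2(TPM + 1) 3 were higher and 0 lower. On these scales 59.3% and 65.9% of all tested genes were higher, and 19.8% and 17.2% lower. *atf-4*, the transcription factor whose translation the PEK-1 arm promotes, was at -0.25 with overlapping groups (edgeR adjusted p = 0.094), and at 0.19 by library size alone. *ckb-2*, a choline kinase gene, was the lowest of this set at -0.75 (edgeR adjusted p = 0.000285), with -0.31 by library size alone (edgeR adjusted p = 0.122), and *fic-1*, whose product modifies BiP proteins, was the highest at 0.27 (edgeR adjusted p = 0.0345). With TMM *fic-1* was the 1 gene of the list that was higher at an adjusted p under 0.05. That count was 0 without Δ*lpp* replicate 1, 2 or 5 or BW25113 replicate 2 or 6. Of the ER calcium genes, the pump gene *sca-1* was lower at -0.82 (edgeR adjusted p = 1.4e-06) and remained so by library size alone, at -0.37. The channel gene *itr-1* was at -0.26 with TMM, where it did not pass (edgeR adjusted p = 0.0851), and at 0.19 by library size alone.

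**Figure D5:**
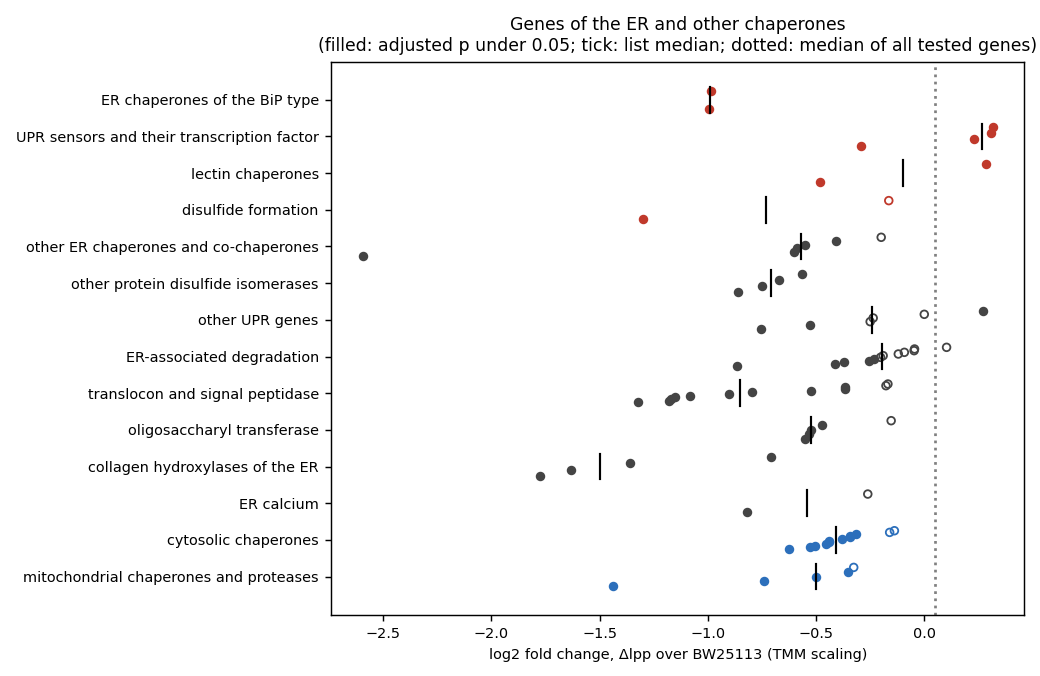
Log2 fold change (Δ*lpp* over BW25113, TMM scaling) of the 10 genes in red, the other ER genes in dark grey and cytosolic and mitochondrial chaperones in blue, by set. Filled points passed an adjusted p of 0.05, ticks mark the set's median and the dotted line the median of all tested genes at 0.05. By median the collagen hydroxylases lie farthest left, followed by the BiP genes and the translocon, and the sensors *ire-1*, *pek-1* and *atf-6* lie right of the line.

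Chaperones outside the ER were also lower with TMM, at 14 of 17 with 0 higher, against 32.3% and 32.9% of all tested genes, and a median of -0.44. By library size alone 3 were lower and 3 higher, against 19.8% and 59.3% of all tested genes, and the median was 0.02. On log2(TPM + 1) 2 were lower and 8 higher, against 17.2% and 65.9%, and the median was 0.16. *hsp-1*, the main cytosolic HSP70 gene, was at -0.62, and *daf-21*, the HSP90 gene that the table lists as *hsp-90*, was at -0.16 with TMM, where it did not pass, and at 0.29 by library size alone. In mitochondria, *hsp-6* was at -0.74 and *hsp-60* at -1.44, and both stayed lower by library size alone, at -0.29 and -0.99. No difference between these lists and the ER genes was tested.

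With TMM, genes that mark tissues differed between the diets as well, where 32.3% of all tested genes were lower and 32.9% higher. Intestinal markers were lower for 6 of 7 genes, with a summed level of 1188 to 1500 CPM in the Δ*lpp* group and 2854 to 3479 CPM in the BW25113 group, and their median was -0.51 by library size alone against -0.95 with TMM. Body wall muscle markers were lower for 5 of 5, at 2372 to 3199 CPM against 6023 to 9776 CPM. All 5 sperm markers tested, of 6 listed, were lower, with a sum of 1.95 to 3.47 CPM against 91.6 to 152 CPM. Of the 6 hypodermal and cuticle markers 4 were lower and 1 was higher, and *bli-1*, a collagen gene of the adult cuticle, had 0.636 to 2.14 CPM in the Δ*lpp* group against 136 to 205 CPM. Neuronal markers were higher for 6 of 6, at 278 to 315 CPM against 203 to 231 CPM. With TMM germline markers were lower for 2 of 5 and oocyte markers higher for 1 of 4, and no pharyngeal or coelomocyte marker passed. By library size alone 59.3% of all tested genes were higher and 19.8% lower. On that scale all 4 oocyte, both pharyngeal and both coelomocyte markers were higher, and germline markers were higher for 2 and lower for 1. Hypodermal and cuticle markers were then higher for 2 and lower for 2. The part of these differences in the levels of the ER genes was not tested, and a difference in tissue makeup or stage cannot be told apart from a change within cells here.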

How the data were processed

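The study sequenced ribosomal RNA-depleted RNA from 12 whole-worm samples. After read filtering in Seqtk, the authors mapped the reads to WBcel235 in HISAT2 (build and aligner also per the submitters' processing notes; versions not given in the sources used here), used Stringtie for counts per gene and RNAnorm for TPM. The deposited table holds estimated counts, of which 8.97% were not whole numbers, and the authors' TPM. It also holds 2 columns of the authors' group means of TPM, which were not used.

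Counts were rounded. Genes passing filterByExpr (minimum count 10, minimum total 15) were tested with edgeR 4.0.16 (R 4.3.3): TMM, robust quasi-likelihood test, no covariate, Benjamini-Hochberg adjustment over 15266 genes. These held 99.93% of counts. A standard error is the log2 fold change over the square root of F. Calls required both a log2 fold change beyond 1 and an adjusted p under 0.05. Ratios were tested by exact permutation, with intervals from its inversion. Figures used matplotlib 3.10.9. Libraries of a group differed beyond sampling noise (chi-square per degree of freedom 4.35 to 69.7 over 30 pairs). The tests were tested on simulated data.

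The members and lists were chosen with earlier results of these data known. Named are the 10 genes, in each set of the ER list the highest and lowest gene among those averaging 10 CPM or more, the 3 genes nearest to *hsp-4* and to *xbp-1*, and genes set in advance (*dpy-18*, *phy-2*, *pdi-6*, *enpl-1*, *atf-4*, *hsp-1*, *daf-21*, *hsp-6*, *hsp-60*). Also named, after their values were seen, are *sec-61.A*, *trap-2* to *trap-4*, *phy-3*, *uggt-2*, *bli-1* and *lin-26*. Genes that overlap a member, and *cdc-48.1* as a near copy of *cdc-48.2*, are named for that relation. Genes were matched by symbol, *marc-6* by ID because the table holds a date in its place, and *emo-1* and *daf-21* under newer symbols. Coordinates are those of Ensembl's WBcel235 annotation. Alternatives were RLE and upper quartile factors, library size only (with and without ribosomal RNA), DESeq2 1.42.0, limma-trend (limma 3.58.1) on log2(TPM + 1) and log2(TPM + 0.1), other filters, the replicate number as a block and each library left out.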

Additional observations from a re-analysis of the deposited data

Results flagged for a closer look

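Among 30 groups of 6 libraries examined (10 genes and 5 ratios on 2 diets), 2 held a library that stood apart from the other 5, where chance gives about 1 in 20 groups. The count ratio of *pdi-2* to *ero-1* was 16.01 in Δ*lpp* replicate 3, above the other Δ*lpp* libraries. The count ratio of *pdi-2* to *dpy-18* was 11.75 in BW25113 replicate 3, above the other BW25113 libraries.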

How the results depend on the processing

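Library scaling decided the direction of 3 genes and none of the other 7. *xbp-1* turned to 0.16 with library size only, 0.14 with ribosomal RNA left out as well, 0.31 on log2(TPM + 1) and 0.31 on log2(TPM + 0.1), and *ero-1* to 0.29, 0.27, 0.45 and 0.46. *crt-1* turned to 0.12 on both TPM scales. Members lower at an adjusted p under 0.05 numbered 3 under each of these 4 settings, and members higher numbered 7 on both TPM scales. Members called lower numbered 0 under the 4 settings and 3 with RLE factors, DESeq2 and no filter. Over all tested genes, calls lower numbered 1747, 1763, 1244 and 1593 under the 4 settings, against 2379 with TMM. With RLE factors, DESeq2 and no filter they numbered 2457, 2456 and 3152, the last with more genes tested. For the 51 other ER genes, library size only, the same without ribosomal RNA and log2(TPM + 1) gave 15, 14 and 20 higher, 16, 20 and 14 lower, 3, 3 and 1 called lower, and medians of -0.072, -0.093 and 0.117. With TMM 1 of these genes was higher, 35 were lower and 9 were called lower, with a median of -0.523. Over all tested genes, calls higher numbered 3720, 3593 and 4558 with library size only, without ribosomal RNA and on log2(TPM + 0.1), calls lower 1244 on log2(TPM + 1), and 1032 and 1178 with at least 10 counts in every library, where fewer genes were tested.

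Leaving out each library gave 1 to 4 members higher, 5 to 6 lower and 1 to 3 called lower, and 0 to 1 of the other ER genes higher. The 1 member higher was reached without Δ*lpp* replicate 2, BW25113 replicate 2 or BW25113 replicate 6. The *hsp-4* to *hsp-3* difference lay between -0.057 and 0.107, on both sides of 0. The other 4 ratios kept direction and threshold. Same-numbered libraries did not deviate together (correlations -0.145 to 0.299, and 2 of 6 correlated best with their own number), so the numbers were not taken as pairs. The replicate block gave 0 of the other ER genes higher and *ire-1* at 0.22 (adjusted p = 0.0876 from edgeR), and changed no other count of calls by over 1.5 times. The causes of these changes were not tested. Counting error is small for the 10 genes, the lowest of which, *atf-6*, had a mean of 16.7 CPM.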
